A study of Mus musculus with 6 samples.

Results

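Hox gene messenger RNA was described on arrays of mouse cells whose titles and design text name prostate cancer cells, given valproic acid (VPA) or left as controls, and whose other labels name embryonic stem cells. The Hox genes were taken as every gene whose symbol is Hoxa, Hoxb, Hoxc or Hoxd followed by digits only, whatever its signal. Of the 39 such genes in a RefSeq gene table, 37 had a value among the 19938 genes tested: 10 of the HoxA cluster and 9 each of HoxB, HoxC and HoxD. Hoxb8, which shared its probe set with Hoxb7, was among those not analysed here. Each of the 37 was read by 1 probe set.

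Hox genes encode transcription factors that bind DNA through a homeodomain and tell cells where along the head-to-tail axis they lie. They sit in 4 clusters on different chromosomes. Within a cluster, genes of low paralog number act in the hindbrain and neck and those of high paralog number in the lumbar, sacral and genital regions, an arrangement called collinearity. Adult fibroblasts and epithelia keep part of the code of their place of origin, held silent or active by Polycomb and trithorax proteins. In the male tract Hoxa10 and Hoxa11 pattern the upper ducts, and Hoxa13, Hoxb13 and Hoxd13 the urogenital sinus from which the prostate buds. VPA inhibits class I histone deacetylases, which remove acetyl groups from chromatin.

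The control group was 3 arrays whose titles name control cells. The other group was 3 arrays whose titles name VPA. The sources used here give no dose, duration or cell line. Other fields of the same samples read differently, and their source and description name embryonic stem cells: the control arrays carry the strain 129SV and differentiated cells, and the VPA arrays the strain Stra8-EGFP/Rosa26 and undifferentiated cells. The groups follow the titles, and each VPA minus control difference rests on them. If the other fields hold, treatment cannot be told apart from strain and differentiation. The labels call the samples biological replicates but do not say whether they were separate cultures, so the p-values measure the spread between these samples, which may be technical.

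The array medians lay between 7.15 and 7.18 on the log2 scale, and the median standard error of a difference was 0.101. With 3 arrays a group, their number limits the precision. To place low signals, the 1027 olfactory receptor genes, which are silent in most tissues, served as a reference, and the 95th percentile of their median signal was 6.49. Of all genes tested, 67.8% lay above this level. It is a description and not a detection call, and since probe sets differ in binding, values of different genes are not amounts of transcript. Markers of the labelled cell types were read against the same level. Of 14 measured prostate and epithelial markers 8 lay above it, among them Krt8 at 7.59 and Foxa1 at 7.16, but the adhesion genes Epcam (5.99) and Cdh1 and the secretory genes Pbsn (3.52) and Msmb (4.89) did not. Of 11 mesenchymal markers 10 lay above it, including Dcn at 14.06 and Vim at 13.51. Of 11 embryonic stem cell markers 2 did, Sox2 at 11.42 and Fgf4 at 7.11, whereas Pou5f1 (5.45), Nanog (6.25) and Zfp42 (4.29) lay below it in the mean of all arrays. Between the groups, Thy1 was the 1 gene of the mesenchymal list that rose (0.99, limma adjusted p = 0.00973). Pdgfrb at -0.36 and Col3a1 at -0.46 did not pass (adjusted p 0.0923 and 0.159), and the list had a median difference of -0.01. No gene of the epithelial or stem cell list passed. Of all genes, 1.71% rose and 0.632% fell at an adjusted p under 0.05. The stem cell list averaged 6.47 to 6.65 in the control and 6.27 to 6.43 in the VPA arrays, and 5 neuronal markers averaged 7.15 to 7.34 against 7.63 to 8.17. The 6 leukocyte markers averaged 6.51 to 6.60 against 6.21 to 6.39, and Cd53 among them fell by 0.88 (limma adjusted p = 0.0373). The other 5 did not pass, with differences from -0.22 (Ptprc) to -0.06 (Lyz2). Of these, Ptprc, Itgam, Adgre1 and Lyz2 lay below the olfactory receptor level and Cd3e, at 6.83, above it. The leukocyte average weighs each gene alike, and Cd53 fell most among the 6. The part of these shifts in the Hox values was not tested. In these bulk samples fewer cells of a type and less RNA per cell cannot be told apart.

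On the array the HoxA member read higher than its HoxD paralog in groups 3, 4, 9, 10, 11 and 13. The promoters of groups 9 and 13 in these clusters are shown, a choice made after the values were seen. Each runs from 250 bases before to 50 after the RefSeq start in GRCm38.p6, and capitals mark CpG dinucleotides, the sites of DNA methylation that also draw Polycomb and trithorax complexes. Hoxa9 lies at chr6:52227321-52227620 (minus strand) and Hoxa13 at chr6:52260831-52261130 (minus strand), Hoxd9 at chr2:74697513-74697812 (plus strand) and Hoxd13 at chr2:74667975-74668274 (plus strand).
Hoxa9: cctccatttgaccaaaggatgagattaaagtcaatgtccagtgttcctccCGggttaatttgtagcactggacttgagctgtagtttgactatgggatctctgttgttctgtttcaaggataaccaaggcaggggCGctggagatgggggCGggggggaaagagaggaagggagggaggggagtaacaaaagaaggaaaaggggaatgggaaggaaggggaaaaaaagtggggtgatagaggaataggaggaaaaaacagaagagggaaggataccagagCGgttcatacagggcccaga
Hoxd9: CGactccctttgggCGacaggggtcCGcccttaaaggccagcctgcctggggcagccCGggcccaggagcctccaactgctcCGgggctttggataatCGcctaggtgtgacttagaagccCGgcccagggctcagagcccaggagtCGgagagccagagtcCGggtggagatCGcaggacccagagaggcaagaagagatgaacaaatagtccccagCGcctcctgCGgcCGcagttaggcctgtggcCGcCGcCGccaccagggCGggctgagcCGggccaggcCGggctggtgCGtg
Hoxa13: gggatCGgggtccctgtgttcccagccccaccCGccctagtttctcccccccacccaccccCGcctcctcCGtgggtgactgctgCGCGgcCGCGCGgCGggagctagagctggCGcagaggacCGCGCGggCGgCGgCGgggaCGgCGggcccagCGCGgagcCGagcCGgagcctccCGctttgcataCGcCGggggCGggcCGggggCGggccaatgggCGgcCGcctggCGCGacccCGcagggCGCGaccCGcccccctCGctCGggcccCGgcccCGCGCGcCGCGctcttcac
Hoxd13: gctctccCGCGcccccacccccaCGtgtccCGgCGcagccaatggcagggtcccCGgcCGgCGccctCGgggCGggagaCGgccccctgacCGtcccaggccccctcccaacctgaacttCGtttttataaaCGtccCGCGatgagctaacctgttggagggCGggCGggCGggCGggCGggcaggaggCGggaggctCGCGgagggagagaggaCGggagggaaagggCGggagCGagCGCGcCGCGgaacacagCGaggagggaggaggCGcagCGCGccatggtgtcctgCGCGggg
The Hoxa9 promoter held 4 CpG and the Hoxd9 promoter 20. The promoters of the group 13 pair held 45 (Hoxa13) and 37 (Hoxd13), against a median of 7 over all 32851 promoters of the table. Of the pairs not printed, Hoxa3 and Hoxd3 held 20 each. The Hoxa3 promoter given lies between those of Hoxa6 and Hoxa7. In group 4, Hoxd4 held 4, and no Hoxa4 promoter was given. Hoxa10 held 12 and 21 in its promoters and Hoxd10 22, and Hoxa11 held 15 and Hoxd11 4 and 25. Promoters were given for 21 members, and the median was 17.5 CpG over 10 HoxA promoters and 20 over 10 HoxD promoters. The motif AGGTCA, a half-site of nuclear receptors searched on both strands, occurred in 7 of 23 Hox promoters (30.4%), against 16.3% of all promoters. These were 1 of 10 HoxA, 1 of 2 HoxB, 1 of 1 HoxC and 4 of 10 HoxD promoters. The posterior Hox motif TTTATNG occurred in 1 of 23, in HoxD, against 10.9% of all. The Pbx-Hox motif TGATNNAT occurred in 3 of 23, against 8.85% of all. These were 1 of 10 HoxA, 1 of 2 HoxB and 1 of 10 HoxD promoters. The 3 motifs were counted separately, and a match is a description of letters, not a binding site.

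**Figure D1:**
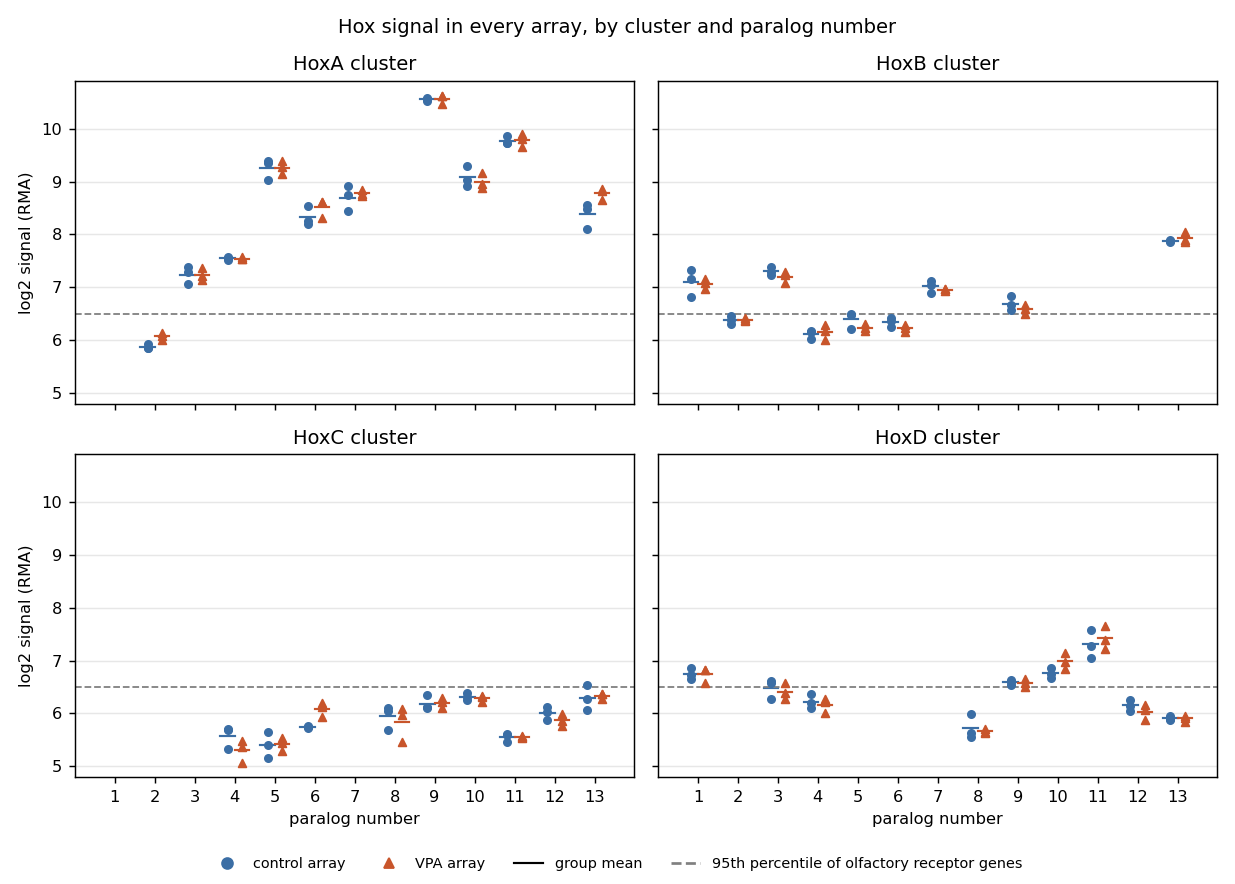
Log2 signal of each Hox gene in every array (circles, control; triangles, VPA; short bars, group means of 3 arrays) against paralog number, 1 panel per cluster; the dashed line at 6.49 is the 95th percentile of olfactory receptor genes. HoxA genes from Hoxa3 to Hoxa13 lie above the line in all 6 arrays, and all but 1 of the HoxC values lie below it.

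The HoxA cluster held the most genes above the olfactory receptor level. Of its 10 measured genes 9 lay above it in all 6 arrays, from Hoxa3 to Hoxa13. At the front, Hoxa2, which patterns the skeleton of the second pharyngeal arch, lay below it in every array. Hoxa3, needed for thymus and parathyroid, was at 7.24 ± 0.17 in control and 7.24 ± 0.11 in VPA arrays (SD, n = 3 per group, here and below). Hoxa4, a gene of the cervical vertebrae, was at 7.55 ± 0.03 and 7.54 ± 0.02. The groups overlapped in both genes.

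The middle genes stood higher on the array. Hoxa5, which acts in the lung and the neck skeleton, read 9.03, 9.35 and 9.38 in control replicates 1, 2 and 3 and 9.38, 9.28 and 9.14 in VPA replicates 1, 2 and 3. Hoxa6 read 8.20, 8.53 and 8.25 against 8.61, 8.62 and 8.32, and Hoxa7 read 8.44, 8.92 and 8.74 against 8.76, 8.73 and 8.84. Both are genes of the thoracic region. Control replicate 1 was the lowest array for these 3 genes, and the groups overlapped in each.

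Hoxa9, a regulator of blood progenitors and of the posterior trunk, gave the highest signal of all 37 members. Its control values were 10.57, 10.59 and 10.53 and its VPA values 10.47, 10.63 and 10.62, which placed it at percentile 87.1 of all genes tested. The groups overlapped, and the difference was 0.01 with a 95% interval from -0.18 to 0.20. Hoxa10, which shapes the vas deferens and the descent of the testis, read 9.31, 9.04 and 8.93 against 8.95, 8.89 and 9.17. Hoxa11, a gene of the kidney, forelimb and reproductive ducts, read 9.73, 9.72 and 9.87 against 9.66, 9.81 and 9.89. Neither separated the groups.

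Hoxa13, the last gene of the cluster and a determinant of digits and of the urogenital sinus, was the member with the largest difference. It read 8.11, 8.48 and 8.56 in control replicates 1, 2 and 3 and 8.83, 8.85 and 8.66 in VPA replicates 1, 2 and 3. Each VPA array lay above each control array, and control replicate 1 stood lowest by itself. The difference was 0.40 on the log2 scale (SE 0.126, 95% interval 0.12 to 0.68), or 1.32-fold. It did not pass limma's moderated test with Benjamini-Hochberg adjustment over all genes (adjusted p = 0.138). Without control replicate 1 it was 0.26 (adjusted p = 0.357).

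The HoxB cluster gave 5 of 9 genes above the olfactory receptor level. Hoxb13, which specifies the ventral prostate, had the highest signal in the cluster. It read 7.86, 7.89 and 7.88 in the control and 7.86, 7.89 and 8.04 in the VPA arrays, with percentile 53.8 among all genes. The groups overlapped, and the interval of its difference ran from -0.14 to 0.25. Hoxb3 and Hoxb1, genes of the hindbrain, were at 7.30 ± 0.07 and 7.10 ± 0.26 in control and 7.20 ± 0.12 and 7.07 ± 0.10 in VPA arrays. Hoxb7 was at 7.02 ± 0.12 and 6.95 ± 0.02. Hoxb9, a gene of the thoracic region, was at 6.68 ± 0.13 and 6.58 ± 0.09 and lay above the level in 5 of 6 arrays.

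The other HoxB genes lay below the level. Hoxb2 was at 6.38 ± 0.08 in control and 6.39 ± 0.03 in VPA arrays, Hoxb4 at 6.12 ± 0.09 and 6.16 ± 0.14, and Hoxb6 at 6.34 ± 0.08 and 6.22 ± 0.06. Hoxb4 promotes the self-renewal of blood stem cells and Hoxb5 acts in gut neurons and lung. Hoxb5 read 6.48, 6.21 and 6.49 in the control and 6.24, 6.17 and 6.31 in the VPA arrays. Its groups overlapped through control replicate 2, and the difference of -0.16 (SE 0.101, limma adjusted p = 0.443) did not pass.

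None of the 9 HoxC genes reached the olfactory receptor level in the median of the arrays, and their means ran from 5.41 for Hoxc5 to 6.31 for Hoxc13. Hoxc13, a gene of hair and nails, exceeded the level in 1 of 6 arrays, and the other 8 in none. Hoxc8, Hoxc9 and Hoxc10, which pattern the thoracic and lumbar spinal cord, were at 5.95 ± 0.22, 6.19 ± 0.13 and 6.32 ± 0.07 in the control arrays. In VPA arrays they were at 5.84 ± 0.33, 6.21 ± 0.10 and 6.29 ± 0.06. Hoxc11 was at 5.56 ± 0.08 and 5.56 ± 0.03, and Hoxc12 at 6.01 ± 0.12 and 5.88 ± 0.11.

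Hoxc6, a gene of the thoracic region and mammary gland, had the smallest p of all members. It read 5.76, 5.72 and 5.74 in the control and 6.20, 6.12 and 5.94 in the VPA arrays. The groups did not overlap, and VPA replicate 3 lay nearest the controls. The difference was 0.34 (SE 0.0925, 95% interval 0.14 to 0.55), or 1.27-fold, with a limma adjusted p = 0.093. Without VPA replicate 3 it was 0.42 and passed, at a limma adjusted p = 0.0475. In that refit 1 of 37 Hox genes was higher, beside 595 of all 19938 genes. All 6 values lay below the olfactory receptor level, and the olfactory receptor genes themselves had a median difference of -0.09.

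Hoxc4, a gene of the neck, had the largest negative difference of the 37. Its control values were 5.70, 5.33 and 5.68 and its VPA values 5.49, 5.07 and 5.37, with replicate 2 lowest in both groups. The difference of -0.26 (SE 0.136, limma adjusted p = 0.346) did not pass. Hoxc5, its neighbour in the cluster, was at 5.41 ± 0.24 and 5.42 ± 0.12.

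In the HoxD cluster 4 of 9 genes lay above the level: Hoxd1, Hoxd9, Hoxd10 and Hoxd11. Hoxd11, which builds the forearm together with Hoxa11, was highest at 7.28, 7.59 and 7.05 in the control and 7.66, 7.21 and 7.39 in the VPA arrays, and the groups overlapped. Hoxd10, a gene of lumbar motor neurons, read 6.87, 6.67 and 6.75 against 7.15, 6.84 and 6.97. VPA replicate 2 lay between the control values, and the difference of 0.22 (SE 0.103, limma adjusted p = 0.297) did not pass. Hoxd9 lay just inside the level, with a lowest array at 6.50, and Hoxd3 just outside it, with a median of 6.48 and 3 of 6 arrays above.

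Hoxd13, which patterns the digits and external genitalia, lay below the level at 5.91 ± 0.04 in the control and 5.91 ± 0.06 in the VPA arrays. Hoxd12 was at 6.15 ± 0.10 and 6.03 ± 0.15, Hoxd8 at 5.72 ± 0.23 and 5.66 ± 0.04, and Hoxd4 at 6.22 ± 0.13 and 6.16 ± 0.14. Of the frontmost genes, Hoxd1 was at 6.75 ± 0.10 and 6.74 ± 0.15 and Hoxd3 at 6.49 ± 0.19 and 6.41 ± 0.15.

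**Figure D2:**
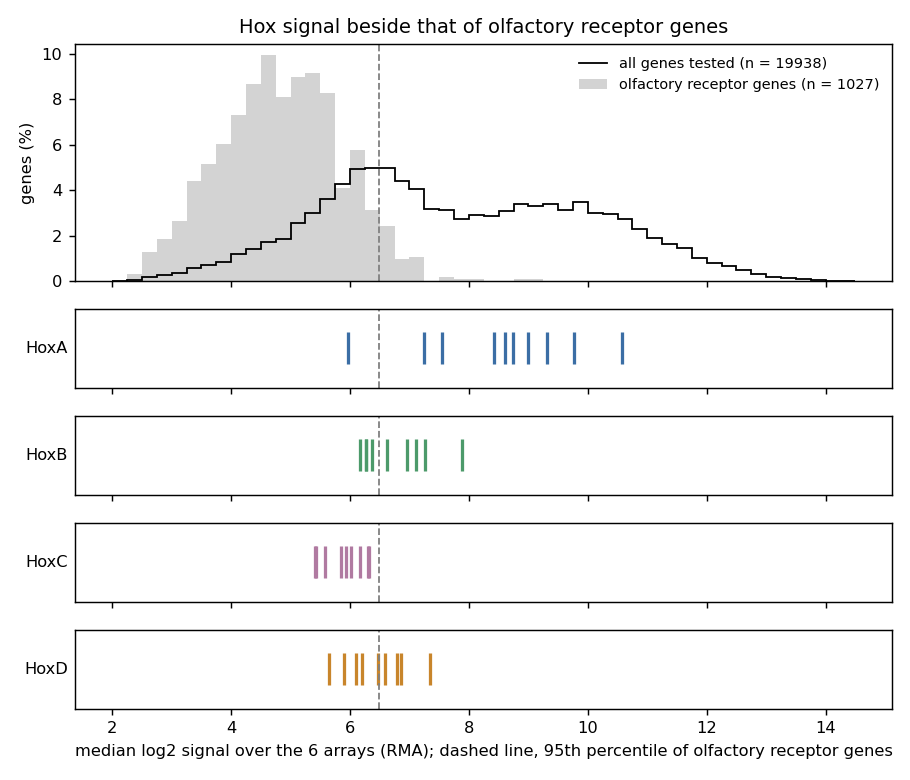
Median log2 signal over 6 arrays; the top panel shows the percentage of all 19938 genes (line) and of the 1027 olfactory receptor genes (grey) in each interval of signal, and each tick below is 1 Hox gene. HoxA ticks reach 10.58, whereas the 9 HoxC ticks end at 6.32, left of the dashed level of 6.49.

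By paralog number, group 9 held Hoxa9 at 10.57, Hoxb9 at 6.63, Hoxc9 at 6.20 and Hoxd9 at 6.58 (means over 6 arrays). In group 13 Hoxa13 was at 8.58, Hoxb13 at 7.90, Hoxc13 at 6.31 and Hoxd13 at 5.91. In groups 4 to 8, 4 HoxA genes lay between 7.55 and 9.26, while 4 HoxB genes lay between 6.14 and 6.99, 4 HoxC genes between 5.41 and 5.91 and 2 HoxD genes between 5.69 and 6.19. The 4 HoxA genes of groups 9 to 13 lay between 8.58 and 10.57, and the 5 HoxD genes of these groups between 5.91 and 7.37. In group 12, Hoxc12 and Hoxd12 were both below the olfactory receptor level. In groups 1 to 3, the highest mean was 7.25, for Hoxb3.

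**Figure D3:**
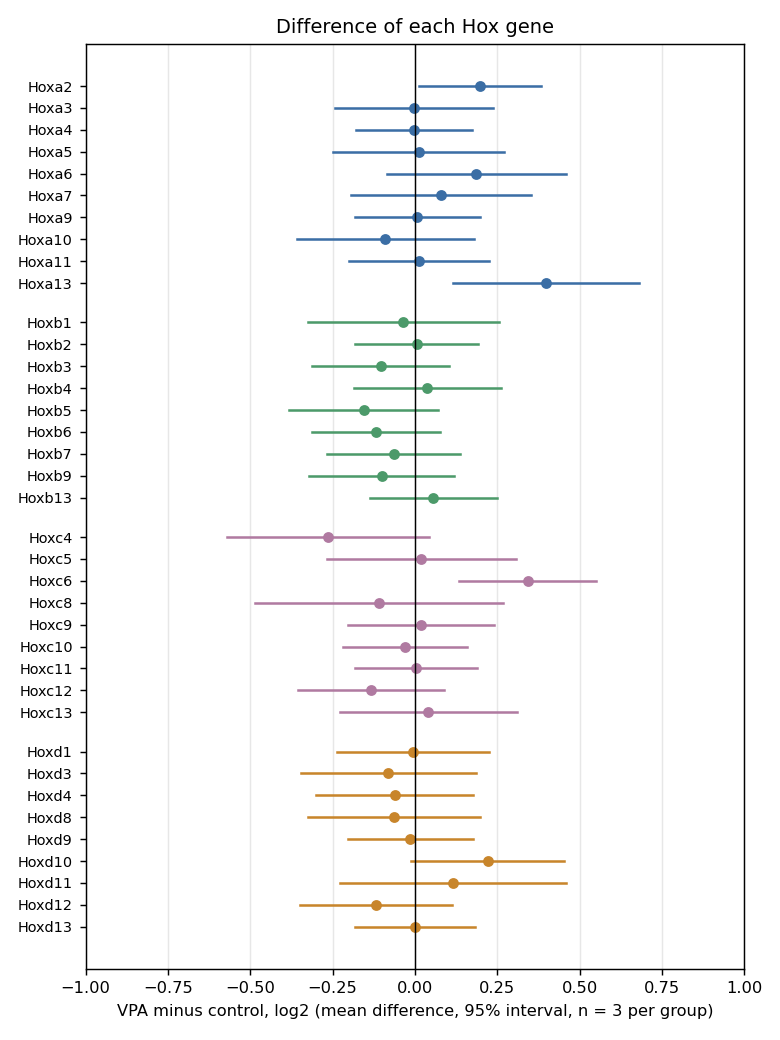
Mean VPA minus control difference of each Hox gene on the log2 scale (point) with its 95% interval from limma (line), 3 arrays per group, ordered by cluster and paralog number. Only the intervals of Hoxa2, Hoxa13 and Hoxc6 lie wholly to one side of 0, and Hoxa13, Hoxc4 and Hoxc6 are the 3 whose interval reaches past 0.5 in size.

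No Hox gene passed limma's test at an adjusted p under 0.05: 0 of 37 were higher, against 1.71% of all genes, and 0 of 37 lower, against 0.632% of all genes (2.34% in either direction). At an unadjusted p under 0.05, 3 of 37 (8.11%) differed, against 18.1% of all genes. These were Hoxc6, Hoxa13 and Hoxa2, all higher with VPA, a direction taken by 9.82% of all genes against 8.3% that were lower. The same 3 were the members whose groups did not overlap, again 8.11% against 23.1% of all genes (11.1% higher, 12% lower). Both shares lie below the background.

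Hoxa2 read 5.84, 5.93 and 5.84 in the control and 6.01, 6.07 and 6.13 in the VPA arrays, with no overlap. Its difference was 0.20 (SE 0.0822, 95% interval 0.01 to 0.38), or 1.15-fold, with a limma adjusted p = 0.245. Like Hoxc6, it lay below the olfactory receptor level throughout.

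For the 18 Hox genes above the olfactory receptor level, the 95% interval, not adjusted for the number of genes, lay within 0.5 of 0 on the log2 scale in 17, against 79.2% of all genes above that level. The exception was Hoxa13, whose interval reached 0.68. The interval of the other 19 lay within 0.5 of 0 in 17, and that of olfactory receptor genes in 82.6%. Over both sets this was 34 of 37, against 81.4% of all genes. At such low signal an interval limits the change of the array signal and not that of the transcript. The median difference of the 37 was -0.003, with 18 above and 19 below 0, beside a median of -0.035 over all genes, of which 41.4% were above 0. The clusters had medians of 0.01 (HoxA, 7 of 10 above 0), -0.06 (HoxB, 3 of 9), 0.003 (HoxC, 5 of 9) and -0.01 (HoxD, 3 of 9). Among paralog groups, all 4 genes of group 13 had differences at or above 0, from 0.0004 for Hoxd13 to 0.40 for Hoxa13. The 3 genes of group 11 ran from 0.003 to 0.11, and the 2 of group 12 were -0.13 and -0.12. Other groups were one-sided too: groups 1, 3 and 8 lay below 0 and group 2 above it. Groups 4, 5, 6, 7, 9 and 10 went both ways.

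**Figure D4:**
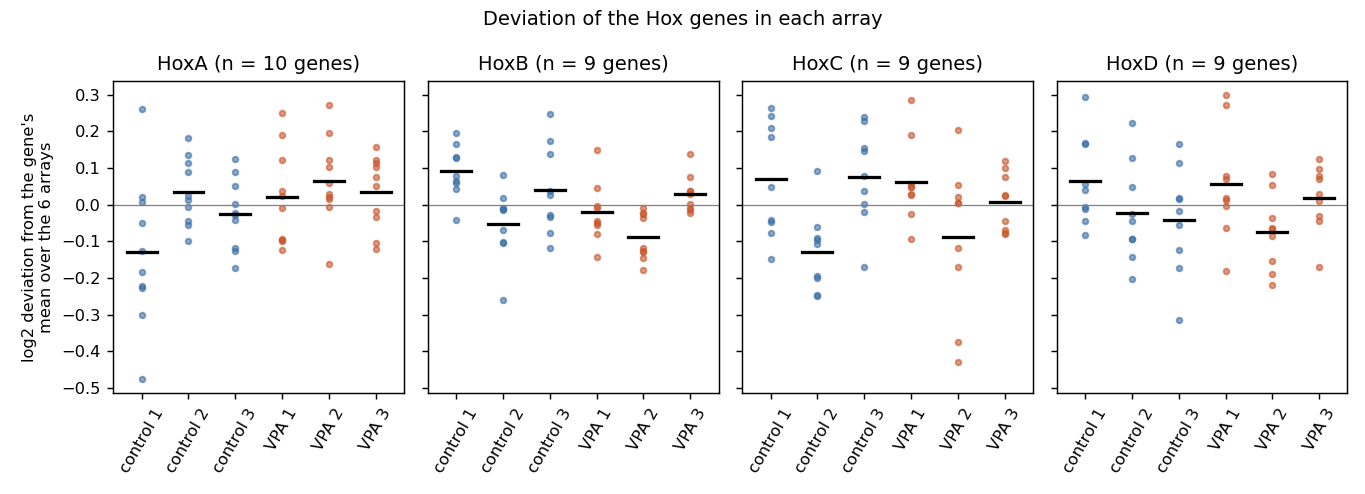
Deviation of each Hox gene from its own mean over the 6 arrays (points, log2), by array and cluster, with the mean of the cluster in each array (black bars; blue, control; orange, VPA). Control replicate 1 lies lowest for HoxA, at -0.13 in the mean, and control replicate 2 lowest for HoxC, also at -0.13.

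The spread between replicates differed by array as well as by gene. The standard deviation within groups had a median of 0.122 over the 37 genes, the same as over all genes, and 0.151 in HoxA. Relative to each gene's mean, HoxA averaged -0.13, 0.04 and -0.02 in control replicates 1, 2 and 3 and 0.02, 0.07 and 0.03 in VPA replicates 1, 2 and 3. HoxC averaged 0.07, -0.13 and 0.08 against 0.06, -0.09 and 0.01. In HoxC replicate 2 had the lowest average of each group. In VPA replicate 2 this average rested on few genes: Hoxc8 lay -0.43 and Hoxc4 -0.37 from its mean, and 4 of 9 genes lay below theirs. Replicate 2 was the lowest of its group in both groups for 4 of 9 HoxC genes, as for 4 of 9 in HoxD, 3 of 9 in HoxB and 0 of 10 in HoxA. The same held for 22.6% of all genes and 30.4% of olfactory receptor genes. Whether a shared step in handling stands behind the replicate number was not tested. Without control replicate 2 the median differences were -0.13 for HoxB and -0.07 for HoxC.

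Messenger RNAs for proteins that work with or upon Hox genes were read on the same arrays. The 10 measured genes of the TALE list (Pbx, Meis, Pknox and Tgif families) all lay above the olfactory receptor level. Of these families, Pbx, Meis and Pknox proteins bind DNA beside Hox proteins. Of the 10 genes 0 passed limma's test, against 2.34% of all genes. Tgif1 at -0.39 and Pbx3 at -0.34 had the smallest p (adjusted p 0.0722 and 0.0781). Both passed, at 0.0486 and 0.044, when the variance prior both followed intensity and was made robust to outlying variances. Of 22 Polycomb genes, whose products silence Hox clusters, 21 did not pass. Of the 22, 0 rose, against 1.71% of all genes, and 1 fell, against 0.632%. The 1 was Phf19, a Polycomb-like subunit that guides the complex to chromatin, which read 9.45, 9.29 and 9.46 in the control and 8.69, 8.65 and 8.93 in the VPA arrays. It fell by 0.64 on the log2 scale (SE 0.101, limma adjusted p = 0.0174), with no overlap between groups. Leaving out control replicate 1 or 3 raised its adjusted p to 0.0843 or 0.0697, and leaving out VPA replicate 1 or 2 to 0.0783 or 0.0789. Of 12 trithorax and H3K27 demethylase genes, which keep Hox genes active, 0 passed, against 2.34% of all genes. Kmt2c at 0.30 and Kmt2b at -0.23 had the smallest p (adjusted p 0.192 and 0.238).

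Of 18 upstream inducers and limits of Hox expression, 1 rose and 1 fell, against 1.71% and 0.632% of all genes. The other 16 did not pass. Gdf11, a ligand that marks the trunk-to-tail transition in the embryo, read 9.74, 9.78 and 9.78 in the control and 10.54, 10.28 and 10.17 in the VPA arrays, and it rose 1.48-fold (log2 0.56, SE 0.105, limma adjusted p = 0.0298). Cyp26a1, which degrades the Hox inducer retinoic acid, fell by 0.83 (SE 0.136, adjusted p = 0.0212). The Gdf11 call ended when any array but VPA replicate 3 was left out, at adjusted p from 0.0508 to 0.125. Cyp26a1 lost it without control replicate 1, VPA replicate 1 or VPA replicate 2, at 0.0515, 0.0844 and 0.084. With every probe set of the table in the adjustment, Phf19, Cyp26a1 and Gdf11 had adjusted p of 0.138, 0.151 and 0.166. Of 24 other positional homeobox and T-box genes, 0 passed, against 2.34% of all genes, and 15 lay above the olfactory receptor level. Six2 at -0.25 and Barx1 at -0.30 had the smallest p (adjusted p 0.129 and 0.146). Of 21 measured genes flanking the clusters, the 3 nearest protein-coding genes on each side, 0 passed, against the same 2.34%. Cbx5 at -0.26 and Calcoco1 at 0.38, both beside HoxC, had the smallest p (adjusted p 0.157 and 0.195). Without control replicate 2 Calcoco1 was 0.55 and passed (adjusted p = 0.0402).

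**Figure D5:**
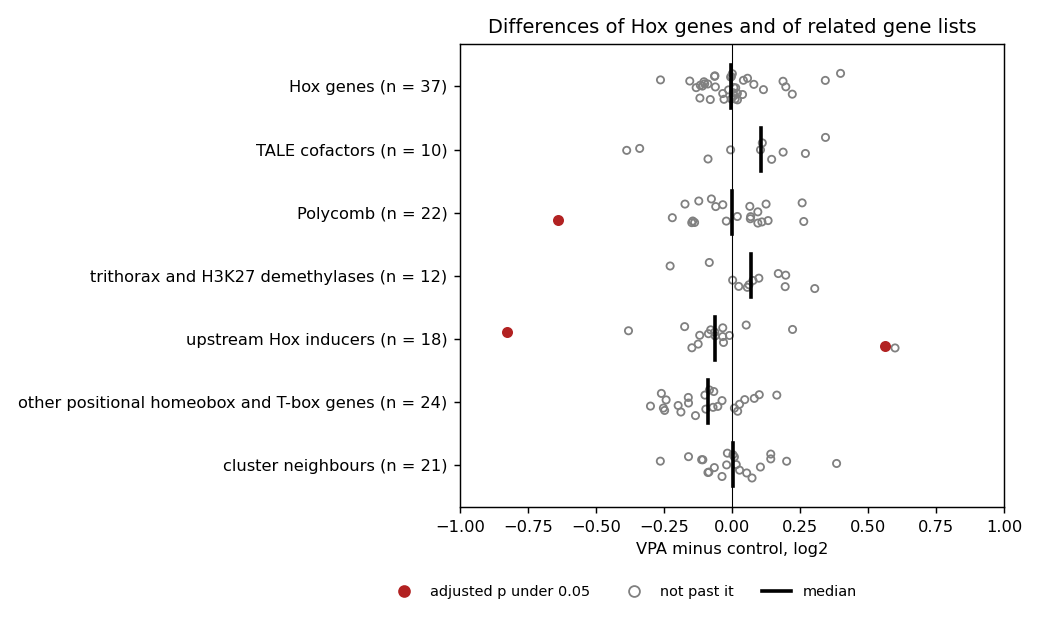
VPA minus control difference (log2) of each Hox gene and of each gene of 6 related lists (circles; filled red, limma adjusted p under 0.05; black bars, list medians). All 37 Hox genes lie between -0.26 and 0.40 with no filled point; the 3 filled points are Phf19 (-0.64), Cyp26a1 (-0.83) and Gdf11 (0.56).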

How the data were processed

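The labels' protocols describe Trizol extraction with DNase treatment and 300 ng of RNA labelled with biotin for Affymetrix Gene Mouse Arrays 1.0 ST. Log2 values were deposited as the authors computed them with RMA, run in Affymetrix Expression Console; this is per the submitters' processing notes. The sources used here name no version and no genome build. RMA forces the arrays to 1 distribution, so a shift of most transcripts would not show, and it leaves no detection call.

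The platform annotation gave 1 symbol to 21789 of 35556 probe sets, several to 1621 and did not list 12146. Entrez identifiers matched 21698 probe sets to RefSeq genes of GRCm38.p6, which changed 0 symbols. The probe set with the highest mean over the 6 arrays stood for each of 19938 genes. VPA was compared with control in limma 3.58.1 (lmFit, eBayes; R 4.3.3), with group alone in the model and two-sided tests, with Benjamini-Hochberg adjustment over all genes and a call at an adjusted p under 0.05. The fit was checked on simulated data. Every Hox gene is given with its level, full statistics are given for the 6 with the smallest p, and of each related list up to 3 called genes in each direction or the 2 with the smallest p are named. Epithelial, stem cell and other markers were named as checks. The members and lists were chosen with earlier results of these data known. The alternatives were a filter at log2 6 in 3 arrays, renormalization, other variance models, other probe set rules, other thresholds and leaving out each array. Leukocyte, endothelial and neuronal markers were also listed: of 6, 4 and 5 measured, 2, 2 and 4 lay above the olfactory receptor level, and 1 fell, 0 changed and 3 rose. Over all genes, 0.632% fell and 1.71% rose at the same threshold. Some genes of these lists are not reported here.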

Additional observations from a re-analysis of the deposited data

How the results depend on the processing

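No Hox gene was lower with VPA under any alternative at an adjusted p under 0.05, and 1 was higher, Hoxc6 without VPA replicate 3. In that refit 595 of all 19938 genes were higher, beside 1 of the 37 Hox genes. At an unadjusted p under 0.05 in the main fit, 3 Hox genes were higher and 0 lower. Over 511 refits of the 37 genes, the sign changed in 64, spread over 22 genes whose differences were at most 0.11 in size. Many of the 511 could not change sign. The filter on low values, the intensity-following variance prior, the replicate block and the other probe set rules left each difference as in the main fit. Outside the 6 genes with full statistics, sign changes are given as this count and not one by one, a choice made after their number was seen. The filter on low values kept 30 of the 37. Hoxa13 ranged from 0.26 to 0.49 and Hoxc6 from 0.28 to 0.42. The genes above the olfactory receptor level numbered 18, with 12 against the 99th and 27 against the 90th percentile, 17 counting every array, and 18 or 19 without any single array (added after seeing the data). The split by cluster depended on the percentile. Against the 90th, at 6.16, Hoxc9, Hoxc10 and Hoxc13 lay above. Against the 99th, at 7.13, only Hoxb3, Hoxb13 and Hoxd11 did outside HoxA. Low signal limits the HoxC readings, Hoxc6 included. The background of changed genes, 467 (341 higher and 126 lower), moved more. It was 1199 (827 and 372) with the replicate number as a replicate block, 2 (2 and 0) with every probe set tested, 714 (534 higher) with array weights, 43 (33 and 10) at an adjusted p under 0.01 and 3611 (1957 and 1654) at an unadjusted p under 0.05. Leaving out each array in turn gave 20 to 815 changed genes, with 15 to 595 higher and 5 to 220 lower, and 0 to 1 Hox genes higher. The extremes were without control replicate 1 and without VPA replicate 3. Same-numbered arrays deviated together with correlations of 0.0841, 0.451 and 0.284, the first under 0.1. Control replicates 2 and 3 correlated best with the VPA array of their number, and control replicate 1 with VPA replicate 3. With 3 arrays a group this cannot decide whether the arrays were paired, and the main model held group alone. With the replicate number as a block, Tgif1 passed at a limma adjusted p of 0.0497, and 0 Hox genes did. In that fit Hoxa13 had an adjusted p of 0.0842 and Hoxc4 of 0.0968. The cause of these shifts was not tested.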

Other observations

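The clusters also encode microRNAs whose precursors have probe sets on the array; they were chosen after the Hox values were seen. The mature forms below are from RefSeq (GRCm38.p6), with the seed (bases 2 to 8) in capitals, and the miR-10 pair and the miR-196 pair each share 1 seed.
miR-10a-5p: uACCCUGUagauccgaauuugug
miR-10b-5p: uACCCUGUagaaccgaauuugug
miR-196a-5p: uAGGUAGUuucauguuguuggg
miR-196b-5p: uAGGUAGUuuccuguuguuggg
Counted from the 5′ end, miR-10a and miR-10b differ by U12A and miR-196a and miR-196b by A12C. The miR-196 family is known to target Hox messenger RNAs. Its gene Mir196b lies between Hoxa9 and Hoxa10, Mir196a-1 between Hoxb13 and Hoxb9, and Mir196a-2 between Hoxc10 and Hoxc9. Mir196a-2 read 5.11, 4.90 and 4.90 in the control and 4.70, 4.52 and 4.82 in the VPA arrays, with no overlap. Its difference of -0.29 (SE 0.106, limma adjusted p = 0.187) did not pass, and all values lay below the olfactory receptor level. Mir196a-1 differed by -0.26 (adjusted p = 0.285) and Mir196b by 0.03 (adjusted p = 0.943). Mir10a and Mir10b were near 3 on the log2 scale and differed by -0.03 and 0.01. Mir615, in the HoxC cluster, was the 1 of these 6 microRNA genes above the olfactory receptor level, in all 6 arrays. It read 7.99, 7.81 and 7.87 in the control and 7.76, 7.63 and 7.76 in the VPA arrays, with no overlap, and its difference of -0.17 (SE 0.0891, limma adjusted p = 0.345) did not pass. Array probes for precursors do not measure the mature microRNA.

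Among other noncoding genes of the clusters, Hottip, at the HoxA end beside Hoxa13, was at 5.98 over the 6 arrays and differed by -0.06 (limma adjusted p = 0.828), whereas Hoxa13 itself was at 8.58. Hoxaas2, antisense in HoxA, was at 6.29 and differed by -0.09, and Haglr, in HoxD, was at 5.32 and differed by -0.11 (adjusted p 0.788 and 0.715). Hoxd3os1, also in HoxD, read 6.53, 6.53 and 6.51 in the control and 6.45, 6.18 and 6.57 in the VPA arrays, above the level in all but 2 of the 6 arrays, and its difference of -0.12 (limma adjusted p = 0.572) did not pass. The probe set shared by Hoxb8 and Hoxb7 read from 5.33 to 5.59 over the 6 arrays, below the level, whereas Hoxb7 by itself was at 6.99.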
